A study of Rattus norvegicus with 18 samples.

Results

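The 9 genes Adcy1 to Adcy9 encode the membrane-bound adenylyl cyclases, the enzymes that make cyclic AMP (cAMP). They were taken by symbol from 38445 genes counted in the rat ventral tegmental area (VTA), the midbrain region where the dopamine neurons of the reward pathway lie, and all 9 were found and passed the filter on low counts, among 17637 genes tested. RNA came from 18 adult male Sprague-Dawley rats of wild-type genotype, 1 library per rat, in 3 groups of 6. Control rats (numbered 1 to 6) were fed a Lieber-DeCarli liquid diet without ethanol, and chronic ethanol rats (7 to 12) the same kind of diet with ethanol at 9% v/v. Feeding lasted 15 or 16 days, and the ethanol rats were taken with no withdrawal (0 h). Rats 13 to 18 had the ethanol diet as well and were taken 24 h into withdrawal. The labels give no dose consumed, blood ethanol or cell sorting, so each value is a level in the mixed cells of a dissected block of tissue. In such samples fewer cells of a type and less RNA per cell cannot be told apart.

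Adenylyl cyclases turn ATP into cAMP when a receptor releases a stimulatory G protein alpha subunit, and cAMP then acts on protein kinase A (PKA), on Epac exchange factors and, through PKA, on the transcription factor CREB. The isoforms differ in what else they sense. Adcy1, Adcy3 and Adcy8 form the calmodulin-stimulated group, Adcy2, Adcy4 and Adcy7 are activated by G protein beta-gamma subunits together with the alpha subunit, Adcy5 and Adcy6 are inhibited by calcium and by inhibitory alpha subunits, and Adcy9 is weakly sensitive to the drug forskolin. Cyclase signalling has long been studied in ethanol exposure, and Adcy7 is known for an enzyme activity that ethanol enhances.

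Promoter sequences of Adcy1, Adcy2, Adcy4, Adcy5, Adcy7 and Adcy9 were matched in the RefSeq promoter table (build GRCr8), as 300 bases that end 50 bases after the annotated start. They were searched on both strands for the cAMP response element, TGACGTCA, which CREB binds, and for its core, TGACG, which lies inside the full element. The Adcy1 entry was left out, since an open reading frame runs from an ATG before its annotated start to the end of its window. None of the other 5 held the full element, which 1.91% of 27457 promoters of the same length held. The core stood once in Adcy7, at 35 bases from the start, and once in Adcy9, at -60, and 22.0% of all promoters held it. GC content was 58.3% in Adcy7 and 74.0% in Adcy9, with a median of 52.3% over all promoters. The 2 promoters with the core are shown with that of Adcy2, the member with the highest level per length, which holds none. Capitals mark the core. The Adcy9 sequence is chr10:11645595-11645894 (plus strand), the Adcy7 sequence chr19:34936495-34936794 (minus strand) and the Adcy2 sequence chr1:36203804-36204103 (plus strand).
Adcy9: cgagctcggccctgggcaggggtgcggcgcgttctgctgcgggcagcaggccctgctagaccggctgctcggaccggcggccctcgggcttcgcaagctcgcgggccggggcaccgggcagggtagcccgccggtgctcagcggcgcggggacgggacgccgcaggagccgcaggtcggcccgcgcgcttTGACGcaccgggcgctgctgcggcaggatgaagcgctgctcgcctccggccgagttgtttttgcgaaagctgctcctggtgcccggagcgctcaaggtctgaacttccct
Adcy7: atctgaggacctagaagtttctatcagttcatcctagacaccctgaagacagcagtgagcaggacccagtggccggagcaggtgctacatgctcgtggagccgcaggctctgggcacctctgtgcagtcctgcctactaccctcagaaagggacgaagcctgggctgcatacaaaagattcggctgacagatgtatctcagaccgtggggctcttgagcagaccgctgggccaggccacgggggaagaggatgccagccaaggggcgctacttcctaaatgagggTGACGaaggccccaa
Adcy2: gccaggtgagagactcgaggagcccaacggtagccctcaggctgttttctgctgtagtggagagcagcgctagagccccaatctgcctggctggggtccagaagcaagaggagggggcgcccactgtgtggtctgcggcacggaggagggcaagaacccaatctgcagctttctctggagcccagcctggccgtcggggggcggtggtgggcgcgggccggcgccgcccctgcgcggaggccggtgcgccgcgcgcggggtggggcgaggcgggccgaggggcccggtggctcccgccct
A match describes these letters and is no evidence of binding.

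In the Rnor_6.0 annotation used for the counts the genes lie on separate chromosomes, except that Adcy6 and Adcy8 are both on chromosome 7. Adcy1 (gene 305509) spans chr14:87311970-87429880 (plus strand), Adcy2 (gene 81636) chr1:37043071-37698390 (plus), Adcy3 (gene 64508) chr6:28570941-28648848 (plus) and Adcy4 (gene 54223) chr15:34453917-34469779 (minus). Adcy5 (gene 64532) spans chr11:68695839-68842452 (minus), Adcy6 (gene 25289) chr7:140270678-140291722 (minus), Adcy7 (gene 84420) chr19:19702307-19762973 (minus), Adcy8 (gene 29241) chr7:105353883-105593372 (minus) and Adcy9 (gene 302950) chr10:11392698-11515406 (plus). The counts cover annotated exons, with a total exon length from 3.46 kb for Adcy4 to 13.9 kb for Adcy7. Pairs were counted by strand and those matching several genes were left out. Adcy2 overlaps the same-strand gene LOC100362709, so exonic reads shared with it would be missing from its count. The genes overlapping Adcy3, Adcy5, Adcy6 and Adcy9 are on the opposite strand.

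Libraries held 29.6 to 45.1 M counted fragments. Thus 3 counts, which is as much as a zero can hide, came to 0.0665 to 0.101 CPM, scaled by library size alone. All other CPM values are counts scaled by library size and TMM factor. That floor covers counting error only, and every cyclase lay far above it. The tissue varied between rats. The dopamine neuron marker list (10 genes, none at 0 in every library) summed to 1268 to 3769 CPM in control rats, to 552 to 3662 in chronic ethanol rats and to 477 to 3141 in withdrawal rats. Th, which makes dopamine, was lowest at 17.6 CPM in withdrawal rat 17 and 69.0 CPM in ethanol rat 8. Slc17a7, a glutamate transporter of forebrain and some hindbrain neurons, was high in rat 13 (810 CPM), rat 5 (509 CPM) and rat 8 (409 CPM), against at most 23.8 CPM in the other rats. The hindbrain gene Hoxb3 was at 31.4 and 30.7 CPM in rats 5 and 8, while Hoxa2, Hoxa3 and Hoxa5 were at 0 in every library. The pineal gene Tph1 reached 14990.0 CPM in rat 13 and at most 7.43 CPM elsewhere. In ethanol rat 7 the hypothalamic genes Pmch and Hcrt were at 292 and 28.2 CPM, against at most 3.80 and 0.138 CPM in the other rats. The members' changes are given with and without rats 5, 8, 13 and 17, and where it matters also without rat 7.

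All 9 cyclases were expressed in control VTA, over a range from 28.5 to 1.96 CPM per kb of exon. Adcy2, of the beta-gamma-activated group, was the highest at 28.5 ± 4.80 CPM per kb (SD, n = 6). Adcy3, best known from olfactory neurons and neuronal cilia, followed at 16.5 ± 0.986 CPM per kb, and Adcy5, the main striatal cyclase, at 12.0 ± 1.15 CPM per kb. The next were Adcy1 at 11.0 ± 3.61, Adcy6 at 9.95 ± 0.974, Adcy9 at 8.08 ± 0.522 and Adcy8 at 6.62 ± 1.35 CPM per kb. Adcy7 at 3.08 ± 0.607 and Adcy4 at 1.96 ± 0.629 CPM per kb were the lowest. The beta-gamma-activated group thus held the highest member and the 2 lowest.

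**Figure D1:**
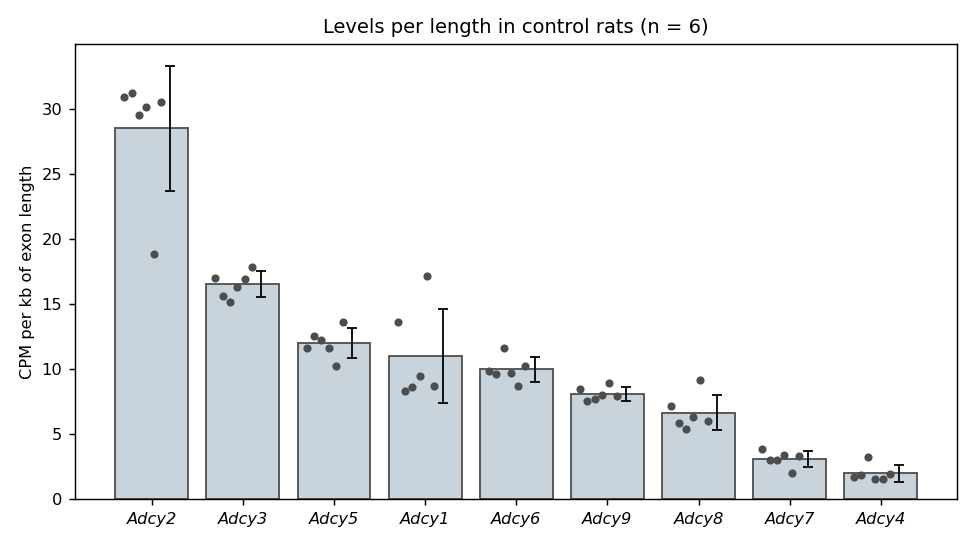
Level of each cyclase in CPM per kb of exon length in the 6 control rats; bars are means, error bars SD and points single rats. Adcy2 stands highest at 28.5 and Adcy4 lowest at 1.96 CPM per kb, and the low Adcy2 point is rat 5.

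Some neighbours in this order were separated in every rat and others were not. Adcy2 exceeded Adcy3, Adcy3 exceeded Adcy5, and Adcy8 exceeded Adcy7 per kb in 18 of 18 rats, with control ranges that did not overlap. The control ranges of Adcy5 and Adcy1 overlapped, with Adcy5 higher in 4 of 6 control rats and 11 of 18 rats. Adcy1 exceeded Adcy6 in only 2 of 6 control rats, although its mean was higher. Adcy6 exceeded Adcy9 in 5 of 6 control rats, Adcy9 exceeded Adcy8 in 5 of 6, and Adcy7 exceeded Adcy4 in 5 of 6, again with overlapping ranges. These comparisons divide by the annotated exon length, so a transcript shorter than its gene model would read too low. Without that division Adcy1 (13.7 kb) stood above Adcy2 (3.87 kb) in control rats, with means of 150 and 110.5 CPM. The sum over the 9 members was 97.6 ± 3.85 CPM per kb in control, 106.5 ± 8.06 in chronic ethanol and 101 ± 7.14 in withdrawal rats (SD, n = 6). Adcy2 made up 29.2 ± 4.53% of the control sum, 31.0 ± 3.99% in chronic ethanol and 31.3 ± 4.61% in withdrawal.

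No cyclase was called in any comparison at a Benjamini-Hochberg adjusted p under 0.05 (edgeR quasi-likelihood F-test over all 18 rats). The background was the same: 0% of the 17637 genes tested were called in each of the 3 comparisons. At an unadjusted p under 0.05, 0 of 9 cyclases stood in chronic ethanol against control, where 5.84% of all genes did. The counts were 0 of 9 in withdrawal against control (9.82% of all genes) and 1 of 9 in withdrawal against chronic ethanol (15.3%). The median log2 change of the members was 0.06, -0.04 and -0.07 in these comparisons, beside -0.00, 0.01 and 0.02 over all genes. In chronic ethanol against control 8 of 9 members had a higher mean estimate, and in withdrawal against chronic ethanol 7 of 9 had a lower one, but both comparisons use the same ethanol rats.

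**Figure D2:**
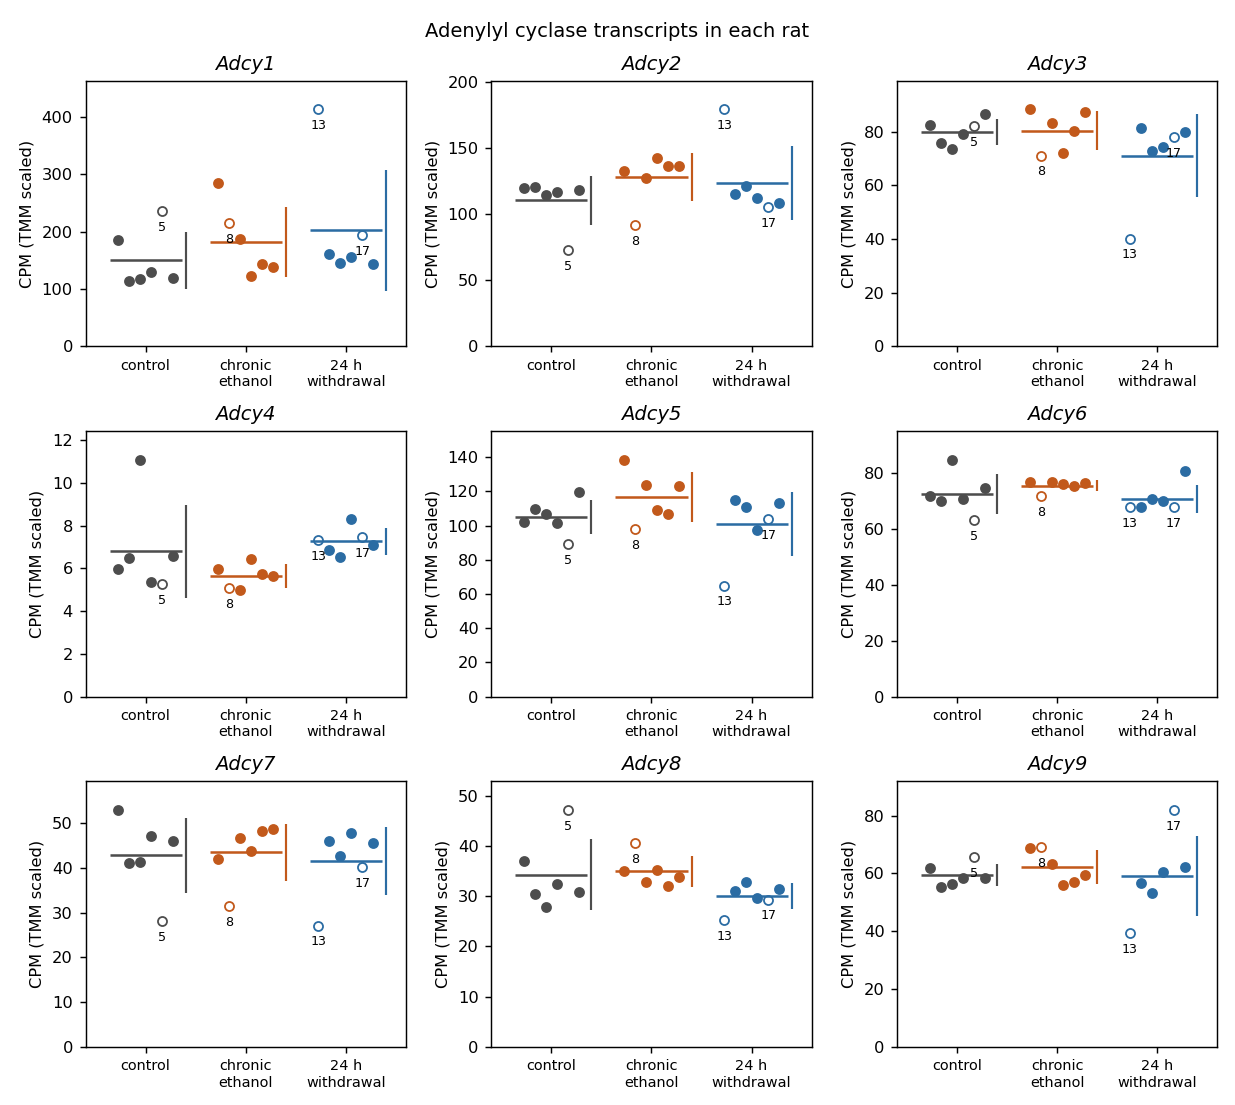
CPM of each cyclase (y axis, from 0) in every rat of the 3 groups; the line is the group mean, the bar beside it 1 SD, and open circles with numbers mark rats 5, 8, 13 and 17. Adcy1 reaches 413 CPM in rat 13, and the withdrawal points of Adcy4 all lie above its chronic ethanol points.

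Adcy1, a neuronal cyclase with a known part in synaptic plasticity, varied most. Its lowest, median and highest values were 114, 124 and 235 CPM in control rats, 122, 165 and 285 with ethanol and 144, 158 and 413 in withdrawal rats. The groups overlapped, and the highest rat of each (5, 7 and 13) stood well above its group's median. The log2 change was 0.28 ± 0.28 (SE; 95% interval -0.32 to 0.87; edgeR adjusted p = 0.999) in chronic ethanol against control. In withdrawal against control it was 0.43 ± 0.28 (-0.16 to 1.02; edgeR adjusted p = 0.589). Without rats 5, 8, 13 and 17 these became 0.39 (-0.03 to 0.81) and 0.18 (-0.27 to 0.63), and withdrawal against chronic ethanol turned from 0.15 to -0.21. With rat 7 left out as well, chronic ethanol against control was 0.15 (-0.15 to 0.45) and withdrawal against chronic ethanol 0.03 (-0.28 to 0.35). Its SD within groups was 0.50 on the log2 scale, larger than that of 97.6% of the genes within 0.5 log2 of its mean level, and without the 4 rats it was 0.34 (99.0%).

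Adcy1 ran opposite to the dopamine neuron markers from rat to rat. The Spearman correlation of Adcy1 with the summed dopamine neuron list was -0.83 over 18 rats and -0.74 over the 14 rats without 5, 8, 13 and 17. The 3 rats with the most Adcy1 (13, 7 and 5) had dopamine sums of 1137, 1474 and 1298 CPM, while rat 2, with the least Adcy1, had the highest sum, 3769 CPM. In rat 13 Ddc gave 415 of the 1137 CPM, the highest Ddc of any rat. The lowest sums, 477 and 552 CPM, were in rats 17 and 8, where Adcy1 was at 194.5 and 215 CPM. With the list for Slc17a7-type glutamate neurons the correlation of Adcy1 was 0.68, and 0.39 without the 4 rats. In rat 13, which had the highest sum, Slc17a7 alone gave 810 of 814 CPM. Neurod2 of the same list was at 0.784 CPM there, against 35.2 and 27.3 CPM in rats 5 and 8. The correlation of Adcy1 was -0.74 and -0.71 with the oligodendrocyte precursor list and -0.64 and -0.46 with the microglia list, of 17 lists compared. The part of these markers in the Adcy1 values was not tested.

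**Figure D3:**
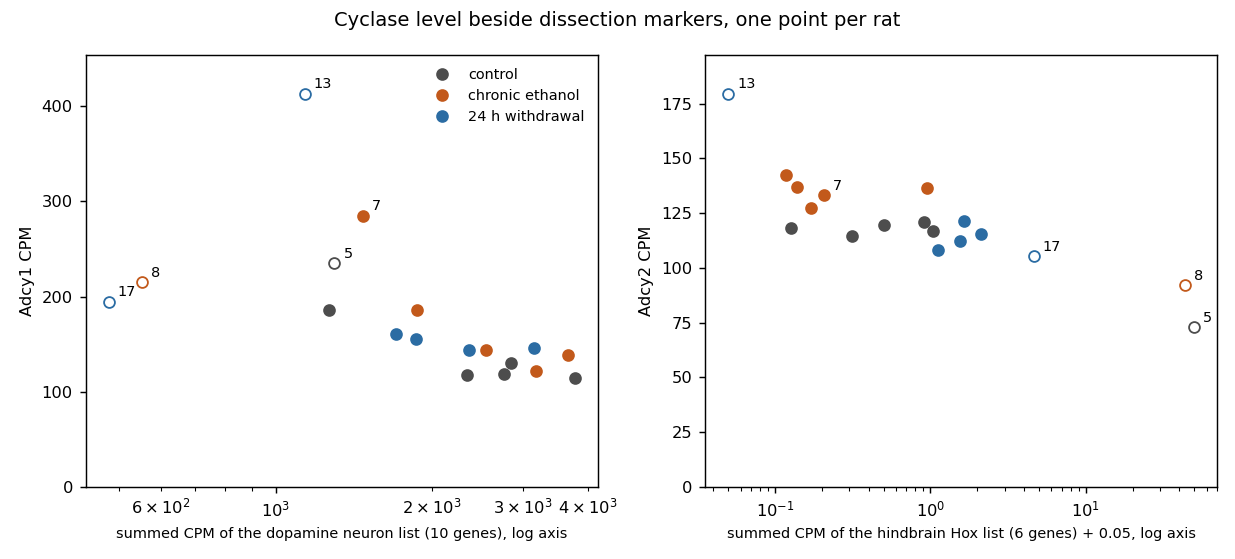
Left, Adcy1 in CPM against the summed CPM of the 10 dopamine neuron markers (log axis); right, Adcy2 in CPM against the summed CPM of the 6 hindbrain genes plus 0.05 (log axis). Each point is 1 rat, colours give the groups, open circles are rats 5, 8, 13 and 17, and rat 7 is also numbered; both cyclases are lower where the markers are higher (Spearman correlation -0.83 and -0.80, n = 18).

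Adcy3 was at 73.4, 80.7 and 86.5 CPM (lowest, median, highest) in control, 71.1, 81.9 and 88.3 CPM in chronic ethanol, and 40.2, 76.2 and 81.4 CPM in withdrawal rats. Apart from rat 13 at 40.2 CPM, all values lay within a narrow band. Adcy3 gave a log2 change of 0.01 (-0.25 to 0.27) in chronic ethanol and -0.17 (-0.43 to 0.09) in withdrawal, both against control, and the latter was -0.05 without the 4 rats. Adcy8, the other plasticity-related isoform of this group, was at 27.8, 31.7 and 47.2 CPM in control rats, 32.1, 34.4 and 40.6 with ethanol and 25.3, 30.3 and 32.8 in withdrawal rats. In 5 of 6 withdrawal rats it lay below every ethanol rat. Mean Adcy8 was 29.9 ± 2.61 CPM in withdrawal against 34.9 ± 3.02 CPM in chronic ethanol (SD, n = 6). The exact two-sided permutation p on log2 CPM was 0.00433, not adjusted and not computed over all genes. In edgeR it changed by -0.22 ± 0.11 on the log2 scale (-0.45 to 0.00; unadjusted p = 0.0530, adjusted p = 0.333). In that comparison 15.3% of all genes had an unadjusted edgeR p under 0.05. Leaving out the 4 rats gave -0.11 (-0.26 to 0.03), and rats 8 and 13 were the highest ethanol and the lowest withdrawal rat for Adcy8. The correlation of Adcy8 with the summed oligodendrocyte list was -0.33 over 18 rats and -0.85 over 14, and the part of that list in the Adcy8 values was not tested.

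Adcy2 had the lowest adjusted p of the family once the 4 rats were left out. With all rats it was at 72.9, 118 and 121 CPM (lowest, median, highest) in control, 92.2, 135 and 143 CPM in chronic ethanol, and 105, 114 and 179 CPM in withdrawal rats. In 5 of 6 ethanol rats it lay above every control rat, and ethanol rat 8 was the exception. The log2 change in chronic ethanol against control was 0.21 ± 0.14 (-0.09 to 0.52; edgeR adjusted p = 0.969). Without rats 5, 8, 13 and 17 the remaining 5 ethanol rats (127 to 143 CPM) lay above all 5 control rats (114.5 to 121 CPM) and all 4 withdrawal rats (108 to 122 CPM). In this set of 14 rats, 2.40% of all genes had ethanol rats that did not overlap control rats, and 4.28% had ethanol rats that did not overlap withdrawal rats. No cyclase separated withdrawal from control rats there, and 2.99% of all genes did. Against control the log2 change of ethanol rats was then 0.19 ± 0.04 (0.11 to 0.27; edgeR adjusted p = 0.121). In withdrawal against chronic ethanol it was -0.24 ± 0.04 (-0.33 to -0.15; edgeR adjusted p = 0.0867), and in withdrawal against control -0.05 (-0.14 to 0.04). None passed the threshold. With rat 7 left out as well, the changes with ethanol rats were 0.20 (0.11 to 0.29) and -0.25 (-0.34 to -0.15). Rats 5, 8 and 13 carried the lowest control, the lowest ethanol and the highest withdrawal value of Adcy2 itself, and rat 17 the lowest withdrawal value. Leaving out these 4 rats thus also trims Adcy2's own spread, from an SD of 0.27 to 0.05 log2.

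Adcy2 ran against the hindbrain and myelin markers. The correlation of Adcy2 was -0.80 with the summed hindbrain list over 18 rats and -0.57 over the 14, and -0.67 and -0.63 with the oligodendrocyte list. The oligodendrocyte sum had a median of 38043 CPM in control rats, 32717 with ethanol and 39366 in withdrawal rats, and its lowest value was 17021 CPM in rat 13, where Adcy2 was highest. With the striatal projection neuron list the correlation of Adcy2 was 0.66 in both sets, and with the GABA neuron list 0.55 and 0.59. In the striatal sum, Ppp1r1b gave 85.9 of 120 CPM in rat 10 and Rgs9 gave 183 of 236 CPM in rat 13. Drd1 of the same list was at 1.67 and 2.22 CPM in these rats, and highest at 5.62 CPM in rat 7. The hindbrain sum without the 4 rats stayed at or under 2.05 CPM, and it was at or under 0.156 CPM, close to the 3-count floor, in rats 6, 7, 9, 10, 12 and 13. The part of these lists in the Adcy2 values was not tested.

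Adcy4, the lowest member and known from blood vessels among other tissues, was the only member whose groups did not overlap in a comparison of all 18 rats. It was at 5.29, 6.22 and 11.1 CPM (lowest, median, highest) in control, 5.01, 5.68 and 6.46 CPM in chronic ethanol, and 6.54, 7.21 and 8.31 CPM in withdrawal rats. All 6 withdrawal rats lay above all 6 ethanol rats, with means of 7.26 ± 0.614 and 5.65 ± 0.550 CPM (SD, n = 6). Over all genes 1.36% showed such a separation between these 2 groups, against 1 of the 9 cyclases. This came to a log2 change of 0.36 ± 0.15 (0.05 to 0.68; edgeR adjusted p = 0.286), and Adcy4 was the 1 member with an unadjusted p under 0.05. The exact two-sided permutation p was 0.00216, the smallest that 6 against 6 rats can give, and is not adjusted for the 17637 genes tested. This test was made for each of the 9 members in the 3 comparisons, and those of Adcy4, Adcy6 and Adcy8 in withdrawal against chronic ethanol came under 0.05. The permutation test was not made over all genes, so no share of all genes stands beside that count. In edgeR 15.3% of all genes had an unadjusted p under 0.05 in withdrawal against chronic ethanol. Leaving out the 4 rats gave 0.32 (-0.05 to 0.70; edgeR adjusted p = 0.466). The remaining withdrawal and ethanol rats did not overlap (4.28% of all genes), which follows from the separation of the full groups and adds nothing to it.

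Against control, neither change of Adcy4 passed the test. The log2 change was -0.27 ± 0.15 (-0.58 to 0.05; edgeR adjusted p = 0.917) in chronic ethanol and 0.10 ± 0.15 (-0.22 to 0.41; adjusted p = 0.833) in withdrawal. Control rat 3, at 11.1 CPM, sets much of both: without it they were -0.07 and 0.29 (edgeR adjusted p = 0.454 for the latter). The same rat had the highest sums of the meningeal list (211 CPM, group medians 34.4 to 38.5 CPM) and of the pericyte and smooth muscle list (316 CPM, group medians 118 to 145 CPM). Endothelial markers (6 genes, none at 0 in every library) summed to 241 to 374 CPM in control rats, 299.6 to 393 with ethanol and 248 to 400.0 in withdrawal rats. The correlation of Adcy4 with the endothelial list was 0.51 over 18 rats and 0.58 over 14. With the oligodendrocyte list it was 0.36 over 18 rats and 0.71 over 14. The part of these lists in the Adcy4 values was not tested.

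Adcy7, the isoform with ethanol-enhanced activity, had group medians close to each other. It was at 28.1, 43.7 and 53.0 CPM (lowest, median, highest) in control, 31.4, 45.3 and 48.7 CPM in chronic ethanol, and 27.1, 44.1 and 47.9 CPM in withdrawal rats. The lowest rat of each group was 5, 8 or 13, the rats with the most Slc17a7. The correlation of Adcy7 with the Slc17a7-type list was -0.63 over 18 rats and -0.31 over 14. Other markers differed among these rats: Hoxb3 was at 31.4 and 30.7 CPM in rats 5 and 8 and at 0 in rat 13, the rat with high Tph1. The log2 change of Adcy7 was 0.02 (95% interval -0.29 to 0.34) in chronic ethanol and -0.04 (-0.36 to 0.28) in withdrawal, both against control. Without the 4 rats the intervals narrowed to -0.14 to 0.15 and -0.16 to 0.15. Its 3-group test gave the highest adjusted p of the family, 0.968 in edgeR, against 0.466 for Adcy4, the lowest.

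Of the calcium-inhibited isoforms, Adcy6 varied less between rats than Adcy5. Adcy5 was at 89.4, 104 and 119.7 CPM (lowest, median, highest) in control, 98.0, 116 and 139 CPM in chronic ethanol, and 64.9, 107 and 115 CPM in withdrawal rats. Its groups overlapped, and rat 13 was again the lowest. The log2 change was 0.15 ± 0.12 (-0.10 to 0.40) in chronic ethanol against control, and 0.15 (-0.00 to 0.31; edgeR adjusted p = 0.384) without the 4 rats. Its SD within groups was 0.22 log2, larger than in 74.4% of genes of like level, and 0.12 (74.9%) without the 4 rats. Adcy6 was at 63.3, 71.2 and 84.8 CPM in control rats, 71.8, 76.1 and 76.8 with ethanol and 67.7, 69.0 and 80.7 in withdrawal rats. It had the smallest SD within groups in the family, 0.10 log2, with 25.0% of genes of like level below it, and 0.09 with 53.2% below it without the 4 rats. In 5 of 6 withdrawal rats Adcy6 lay below every ethanol rat, with a log2 change of -0.09 ± 0.06 (-0.22 to 0.03; edgeR unadjusted p = 0.144, adjusted p = 0.457). Its exact permutation p was 0.0498, not adjusted and not computed over all genes.

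Adcy9 was at 55.4, 58.4 and 65.6 CPM (lowest, median, highest) in control, 55.8, 61.2 and 69.2 CPM in chronic ethanol, and 39.4, 58.6 and 82.0 CPM in withdrawal rats. The withdrawal group held both extremes, rat 13 at the bottom and rat 17 at the top. Adcy9 gave a log2 change of 0.07 (-0.19 to 0.32) in chronic ethanol and -0.01 (-0.26 to 0.24) in withdrawal against control, and 0.06 and -0.00 without the 4 rats. The correlation of Adcy9 with the astrocyte list was -0.17 over 18 rats and -0.83 over the 14, and with the dopamine neuron list -0.56 and -0.60. The part of these lists in the Adcy9 values was not tested.

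**Figure D4:**
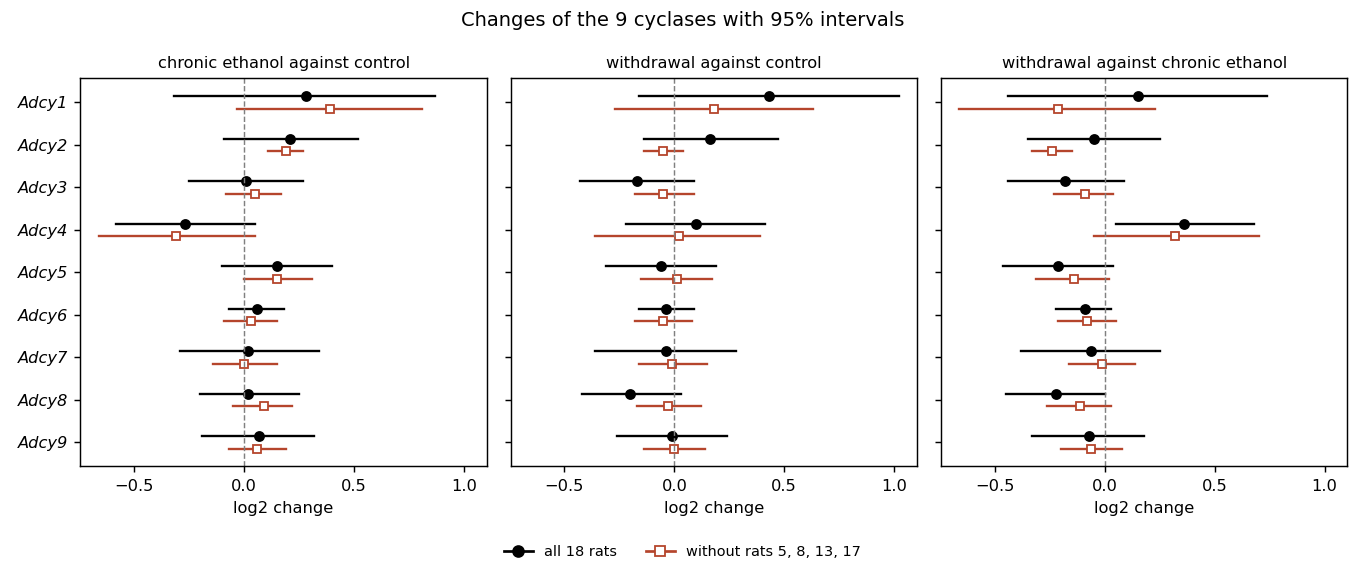
Log2 change of each cyclase (x axis) with its 95% interval in the 3 comparisons, with all 18 rats (filled circles) and without rats 5, 8, 13 and 17 (open squares). With all rats only the interval of Adcy4 in withdrawal against chronic ethanol lies above 0 (0.05 to 0.68); without the 4 rats those of Adcy2 leave out 0 in both comparisons with ethanol rats (0.11 to 0.27 and -0.33 to -0.15).

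Part of the comparisons with ethanol rats could be repeated within libraries that share the first index of their name. Ethanol rats 7 and 8 share it with the 6 control rats, where 28 splits allow a smallest exact permutation p of 0.0357. There the log2 difference was 0.78 for Adcy1, 0.03 for Adcy2, -0.21 for Adcy7 and 0.22 for Adcy9, against 0.27, 0.22, 0.03 and 0.06 over all rats. The value for Adcy9 had p = 0.0357 in the exact permutation test. Both ethanol rats there are among those with markers of other regions. Withdrawal rats 13 to 16 share another with ethanol rats 9 to 12, where 70 splits allow a smallest p of 0.0286. There it was 0.34 for Adcy4 and -0.14 for Adcy6, both at that smallest exact permutation p, and -0.18 for Adcy8 (p = 0.0571). Without rat 13 these were 0.34 (exact permutation p = 0.0571), -0.13 (p = 0.0286, the smallest for 3 against 4 rats) and -0.11 (p = 0.114), and Adcy2 moved from -0.06 to -0.22 (p = 0.0286). These p-values are not adjusted for the 9 members, and the tests were not made over all genes. For Adcy4 the smallest p in 4 against 4 rats follows from the separation of the full groups and adds nothing to it. The same holds for Adcy6, since rats 13 to 16 are among the withdrawal rats that lay below every ethanol rat. Without rat 13 the values for Adcy2, Adcy4 and Adcy6 also come from rats already seen to be apart, and are no independent repeat. No index holds both control and withdrawal rats, so that comparison could not be repeated within an index. A fit with the index as a term links these groups only through the ethanol rats. Of those, only rats 7 and 8 share the index of the control rats.

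The members did not rise and fall as 1 unit across rats. Adcy4 and Adcy8 ran most opposite, with a correlation of -0.81 over 18 rats and -0.68 over 14. Adcy3 and Adcy5 ran together at 0.60 and 0.63. Adcy1 and Adcy9 had a correlation of 0.49 over 18 rats and 0.63 over 14, while Adcy1 and Adcy2 stood near 0 (-0.10 and 0.09). Among 14349 genes that averaged 1 CPM or more, the one most like Adcy9 was Ppp3r1, the regulatory subunit of calcineurin (Spearman correlation 0.96, n = 18), followed by Rbfox1 and the GABA-A subunit Gabra5 (0.94 each). The nearest to Adcy2 was Ctnnb1 (0.93), to Adcy4 Sp100 (0.92) and to Adcy1 Zfp1 (0.91). Nup210 was the nearest to Adcy8 (0.90), and the PACAP receptor gene Adcyap1r1 came next (0.89). Dscam was nearest to Adcy3 (0.89), Lipa to Adcy6 (0.88), Cntnap3 to Adcy7 (0.88) and Sowaha to Adcy5 (0.87). Lipa was also the nearest to Adcy6 over the 14 rats (0.89), while the other 8 members had another nearest gene there. These values carry no test.

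The rest of the cAMP pathway was followed in 61 other genes, all of them tested. None was called in any comparison. At an unadjusted edgeR p under 0.05, 1 was higher and 0 lower in chronic ethanol against control (3.10% and 2.74% of all genes). In withdrawal against control 5 were higher and 1 lower (6.24% and 3.58%), and in withdrawal against chronic ethanol 9 were higher and 2 lower (9.38% and 5.95%). Their median log2 changes were 0.01, 0.05 and 0.02. Without rats 5, 8, 13 and 17 none was called either, and at an unadjusted p under 0.05 the counts were 8 higher and 1 lower in chronic ethanol against control (6.45% and 6.59% of 17718 genes). They were 7 and 1 in withdrawal against control (3.71% and 4.01%) and 6 and 3 in withdrawal against chronic ethanol (6.50% and 6.60%).

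Upstream of the cyclases, neither stimulatory alpha subunit was called. Gnas, the general one, was at 1122 ± 99.2, 1084 ± 95.7 and 1201 ± 173 CPM in control, chronic ethanol and withdrawal, and Gnal, the olfactory and striatal one, at 125 ± 23.0, 133 ± 13.6 and 112 ± 27.3 CPM (SD, n = 6). Both log2 changes in withdrawal against control turned sign without the 4 rats, from 0.10 to -0.07 for Gnas and from -0.15 to 0.09 for Gnal. Of the 5 inhibitory alpha subunits, Gnaz was at 63.2, 67.1 and 55.9 CPM and Gnai3 at 60.7, 57.5 and 67.4 CPM in the same order. Their log2 changes in withdrawal against chronic ethanol were -0.26 and 0.23, and -0.18 and 0.16 without the 4 rats. Of the 5 beta subunits Gnb4 was at 21.0, 17.7 and 16.8 CPM, with a log2 change in withdrawal against control of -0.30 without the 4 rats. Gnb3, a beta subunit of photoreceptor and pineal cells, reached 1579 CPM in rat 13, the rat with high Tph1, and without the 4 rats its log2 change in withdrawal against control was 0.14.

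Of the 16 phosphodiesterases, which break cAMP or cGMP down, Pde8a had the lowest p in the 3-group test. Its means were 70.8 ± 7.92 CPM in control rats, 81.7 ± 7.93 with ethanol and 92.4 ± 16.3 in withdrawal rats (SD, n = 6), a log2 change of 0.38 in withdrawal against control (edgeR adjusted p = 0.349). It was 0.36 (adjusted p = 0.225) without the 4 rats. Pde4b was at 63.0, 60.5 and 68.2 CPM. Pkia, an inhibitor of PKA, was at 214 ± 15.9, 236 ± 36.6 and 188 ± 19.4 CPM, with a log2 change of -0.33 in withdrawal against chronic ethanol (edgeR adjusted p = 0.149, and 0.192 without the 4 rats). The PKA regulatory subunit Prkar1a was at 853, 809 and 793 CPM. The Epac genes Rapgef3 and Rapgef4 had log2 changes from -0.19 to 0.24. The log2 change of Rapgef4 without the 4 rats was 0.31 in chronic ethanol and 0.27 in withdrawal, both against control (0.24 and 0.05 with all rats). That of Rapgef3 in withdrawal against control was 0.20 (0.08 with all rats).

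In the list of CREB and its coactivators 8 of 8 genes had a higher estimate in withdrawal than in control (median log2 change 0.16) and than in chronic ethanol (0.17), and none was called. The medians over all genes were 0.01 and 0.02, and the share of all genes with a higher estimate was not computed. Without the 4 rats 6 of 8 and 5 of 8 were higher, with medians of 0.10 and 0.08, beside -0.01 over all genes in both. Ep300, a histone acetyltransferase that CREB recruits, was at 78.6 ± 6.11, 78.8 ± 3.62 and 89.4 ± 8.14 CPM, with edgeR adjusted p = 0.403 in withdrawal against control. All withdrawal rats (85.3 to 106 CPM) lay above all ethanol rats (76.0 to 84.7 CPM), as in 1.36% of all genes. Atf1 was at 30.3, 29.6 and 35.9 CPM, with a log2 change in withdrawal against control of 0.24, and 0.11 without the 4 rats. Of the 10 anchoring proteins that place PKA near its targets, Akap13 was at 35.7, 33.1 and 39.3 CPM, and Akap10 at 21.4, 19.3 and 28.9 CPM with a highest value of 60.3 CPM in withdrawal. The log2 change of Akap10 in withdrawal against control was 0.43, and 0.11 without the 4 rats. Adcy10, the soluble cyclase that bicarbonate activates, was scarce at 1.95 ± 1.14, 1.63 ± 0.374 and 1.88 ± 0.393 CPM.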

How the data were processed

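Stranded mRNA libraries of 18 rats were sequenced in pairs, per the labels. The deposited values are raw fragment counts that the authors obtained from featureCounts 1.5.0, per the file headers, after alignment with STAR 2.5.2a to Rnor_6.0 per the submitters' processing notes, which also name R 3.3.3 and limma. Of 38445 genes, 29322 took a symbol from a RefSeq table (GRCr8, names only). Genes kept by filterByExpr (17637) were tested with edgeR 4.0.16 (TMM, quasi-likelihood F-test, R 4.3.3) over all 18 libraries and adjusted over all of them (Benjamini-Hochberg). SEs were taken from the change and the root of F. The fit had a common coefficient of biological variation of 0.270, with 2.57 prior degrees of freedom. Permutation tests used log2 CPM with a prior count of 2. Every pair of replicates differed beyond counting noise (chi-square per degree of freedom of at least 12.4). The members, lists, tests and rats left out were chosen with earlier results of these data known, and each pathway list names its 2 genes with the lowest 3-group p. The results of 1 list are not reported here gene by gene. The planned permutation test of the family sum was dropped, since the sum is a score over chosen members. Protein comparisons were not made. Alternatives were RLE factors, no filter, 1 CPM in 6 libraries, a robust fit, DESeq2 1.42.0, limma-voom (limma 3.58.1), only the 2 groups compared, the index as a term, each rat left out, 4 rats left out and an adjusted p of 0.10. The within-index values and the fit without 5 rats were added after seeing the data. The fit was tested on simulated data.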

Additional observations from a re-analysis of the deposited data

Results flagged for a closer look

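In 12 of 30 groups of 6 rats 1 rat stood apart from the rest by Dixon's test at the 95% level, on its gap to the nearest rat over the group's range, where chance gives about 1 in 20. These groups are the members and their sum in the same rats, so they are not independent. The test was not made over all genes, so the count does not show a trait of the cyclases. Withdrawal rat 13 accounted for Adcy1 at 413 CPM, Adcy2 at 179 CPM, Adcy3 at 40.2 CPM, Adcy5 at 64.9 CPM, Adcy7 at 27.1 CPM and the family sum at 116 CPM per kb, in both directions from the other rats. Ethanol rat 8 accounted for Adcy2 at 92.2 CPM, Adcy6 at 71.8 CPM and Adcy8 at 40.6 CPM. Control rat 5 stood apart for Adcy2 at 72.9 CPM, control rat 3 for Adcy4 at 11.1 CPM and withdrawal rat 18 for Adcy6 at 80.7 CPM. Rats 5, 8 and 13 are also those with high Slc17a7, and what part the dissected tissue has in these values was not tested.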

How the results depend on the processing

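No cyclase passed an adjusted p under 0.05 in any of 29 settings, where the lowest adjusted p was 0.0867 (Adcy2, withdrawal against chronic ethanol, without rats 5, 8, 13 and 17). No paired analysis was possible because the groups share no animal numbers. Over all genes edgeR called 0 in each comparison. DESeq2 called 46, 47, 294 and 298 for ethanol against control, for withdrawal against control, for withdrawal against ethanol and for the 3-group test, and limma-voom 2, 0, 0 and 2. At an adjusted p of 0.10 edgeR called 1 in the first and 83 in the third. The first gave 2 with only the 2 groups compared and 2 with the index as a term. Without the 4 rats the counts were 2, 0, 2 and 1. They were 1, 1, 2 and 4 with rat 7 left out as well. With 1 rat left out they ranged from 0 to 4, 0 to 2, 0 to 24 and 0 to 12. The cause of these differences was not tested.

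With the index as a term 4 log2 changes turned sign, those of Adcy3 (-0.01) and Adcy7 (-0.22) in chronic ethanol against control and of Adcy2 (-0.01) and Adcy9 (0.05) in withdrawal against control. With that term, withdrawal and control rats are linked only through the ethanol rats. Without the 4 rats Adcy2 (-0.05) and Adcy5 (0.01) turned in withdrawal against control and Adcy1 (-0.21) in withdrawal against chronic ethanol. With rat 7 left out as well, Adcy2 (-0.04), Adcy5 (0.01) and Adcy9 (0.00) turned in withdrawal against control. With 1 rat left out the changes that crossed 0 were, against control, Adcy3 (-0.02 to 0.04), Adcy7 (-0.07 to 0.10) and Adcy8 (-0.03 to 0.14) in chronic ethanol. In withdrawal against control they were Adcy5 (-0.10 to 0.04), Adcy6 (-0.09 to 0.01), Adcy7 (-0.14 to 0.06) and Adcy9 (-0.13 to 0.08), and in withdrawal against chronic ethanol Adcy1 (-0.19 to 0.32), Adcy7 (-0.14 to 0.03) and Adcy9 (-0.19 to 0.02). Without the 4 rats the SD within groups fell to 0.05 log2 for Adcy2, 0.10 for Adcy3, 0.12 for Adcy5, 0.11 for Adcy7, 0.10 for Adcy8 and 0.10 for Adcy9. That of Adcy4 went from 0.25 to 0.27. The median SD of genes of like level fell too, from 0.14 to 0.16 with all rats to 0.09 or 0.10, and from 0.28 to 0.19 at the level of Adcy4. Adcy4, the member with the fewest counts, had 185 to 383 per library.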
